A study of Mus musculus with 2 samples.

Results

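The genes described here encode 40 histone methyltransferases, histone demethylases and Polycomb proteins, out of 19186 protein-coding genes of at least 2000 bp on chromosomes 1 to 19 and X. They were taken by name, as a functional family, and each was matched to its RefSeq gene body on GRCm38.p6, the assembly that mm10 denotes. The mark measured was H3K36me2, histone H3 dimethylated at lysine 36, in splenic regulatory T (Treg) cells of C57BL/6 mice. There was 1 library from mice labelled as a conditional Treg knockout of Nsd2 (KO) and 1 library from wild-type mice (WT). The sources used here state neither the Cre driver nor the age, number or pooling of the animals. With 1 library a genotype there is no replicate error, so no difference below carries a test.

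NSD1, NSD2, NSD3 and ASH1L place dimethyl groups on lysine 36 of histone H3, and SETD2 places the trimethyl form in transcribed gene bodies. Polycomb repressive complex 2 (PRC2) methylates lysine 27 of the same histone through EZH1 or EZH2, and PRC1 ubiquitinates histone H2A through RING1 or RNF2. Methylation of lysine 36 is known to impede PRC2 on the same histone tail. The lysine demethylases of the KDM families remove such marks. The genes were therefore examined as places where the mark itself lies, not as measures of the enzymes' activity or expression.

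The deposited data are lists of regions in which tags were dense enough to be called, separately in each library. The KO library held 14789700 tags and 39745 regions, and the WT library 17158154 tags and 54527 regions. The covered share of a gene is the percentage of its body inside regions, and a gene without a region may still carry the mark below the calling threshold. Pooled bodies of the T cell markers were covered to 46.3% in KO and 45.3% in WT. Bcl11b alone held 55176 of their 76569 bp in KO and 57894 of 74878 bp in WT. Single T cell markers ran from 6.98% (Cd3g) to 59.9% (Cd3d) in KO. In WT they ran from 2.17% (Cd3e) to 61.8% (Bcl11b). Pooled bodies of the Treg markers were covered to 16.6% in KO and 14.95% in WT, with Ctla4 at 0 in both. Of the B cell markers, Cd79b was covered to 48.8% in KO and 39.8% in WT, Cd79a to 22.9% in KO and 14.7% in WT, and Pax5 to 0.96% in KO and 2.05% in WT, with Ms4a1 at 0 in both. Myeloid markers stood at 1.42% in KO and 1.41% in WT (Lyz2 and Adgre1 at 0 in both). Single myeloid markers differed more than the pooled value: Cd68 was covered to 38.6% in KO and 0% in WT, and Itgam to 2.27% in KO and 3.58% in WT. The CD8 T and NK markers had regions on 0 of 5 genes in KO and on 3 of 5 in WT, 2204 bp in all, with Cd8a and Ncr1 at 0 in both. Among 5 erythroid markers only Klf1 had a region, of 761 bp, in WT. The part of such cells in the differences below was not tested.

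The 40 genes were sparsely marked, though their pooled bodies were more covered than those of all coding genes. They had as many regions in KO as in WT, where coding genes at large had fewer. In a bulk library, fewer cells with the mark and less mark per cell cannot be told apart. Regions covered 98181 bp or 3.73% of their bodies in KO and 89917 bp or 3.42% in WT. The same share over all coding genes was 1.89% in KO and 2.53% in WT. KO covered length was thus 109% of WT covered length in these genes and 74.8% over all coding genes. For coding genes of 30 to 100 kb, a class that holds their median length of 49080 bp, it was 76.1%. Both libraries had 120 regions touching the 40 bodies, so KO regions were 100% of WT regions, with an exact binomial 95% interval of 77.0 to 129.9 that covers counting error only. Over all coding genes the corresponding value was 74.7% (73.6 to 76.0).

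Presence of a region differed little in number between the genotypes. Of the 40 genes, 31 held a region in KO and 30 in WT. A region was present in both libraries in 25, beside a background of 36.1% of all coding genes and 46.6% of those of 30 to 100 kb. In KO alone 6 genes held one (9.04% of all coding genes and 8.28% of those of 30 to 100 kb), namely Nsd2, Setd2, Ezh1, Ezh2, Cbx8 and Kdm5c, with 500 bp each. In WT alone 5 held one (13.3% and 15.4%), namely Kmt2c, Eed, Rnf2, Cbx2 and Kdm6a. Setdb1, Suz12, Bmi1 and Kdm5a had none in either library (41.6% and 29.8%). By covered share, 21 genes were larger in KO and 13 smaller, and 2 covered genes were equal. The background is 21.5% larger and 34.9% smaller over all coding genes, 36.7% and 59.7% over those with a region in either library, and 22.9% and 44.5% in the length class. With a common tag threshold the split was 25 larger and 8 smaller, and over all coding genes 26.8% were then larger and 26.1% smaller, with KO covered length at 92.1% of WT. The split was 26 and 10 when KO shares were divided by the genome-wide ratio of covered lengths. That division brought all coding genes to 100.6% of WT, with 29.6% larger and 28.8% smaller. The median difference over the 40 was 0.07 percentage points and the mean 1.81 points, against 0 and -0.42 points over all coding genes.

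A difference of at least 20 percentage points was used as a rule of size. It was met by 1 gene in the KO direction, Ring1, and by 0 genes in the other. In the background, 1.13% of all coding genes were higher by that much in KO and 1.0% lower, or 1.93% and 1.71% of those with a region in either library. Such differences come mainly from short genes: of coding genes of 30 to 100 kb, 0.0197% were higher and 0.118% lower. The count of 1 of 40 is near the background over all coding genes. At 10 points, 3 genes were higher in KO (Ring1, Kdm6b and Cbx8) and 0 lower, beside 3.22% and 3.97% of all coding genes.

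**Figure D1:**
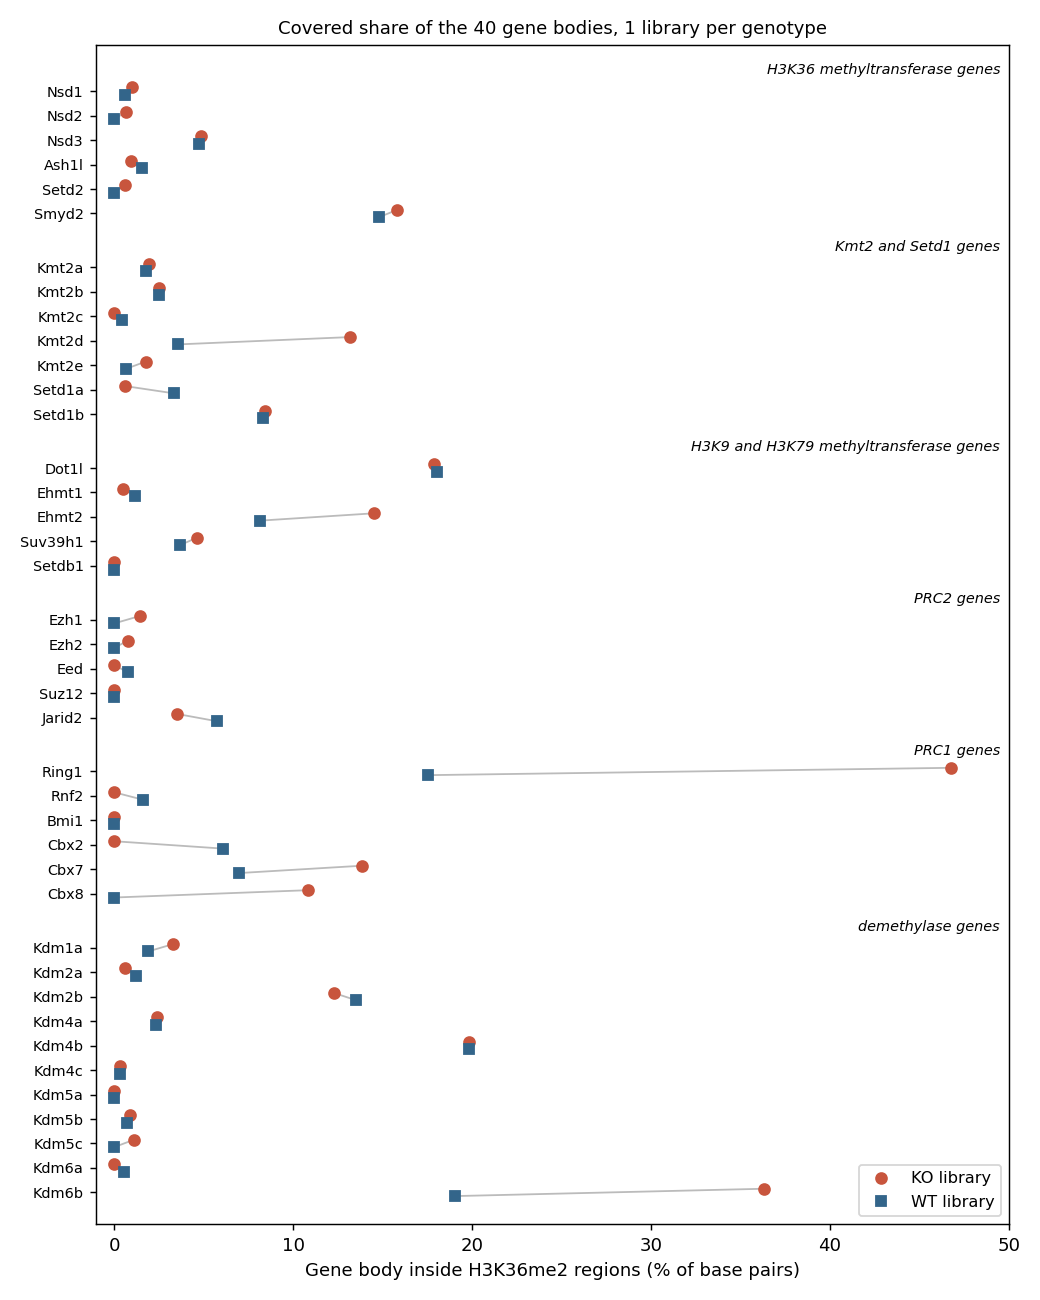
Covered share of each of the 40 gene bodies (horizontal axis, % of base pairs inside H3K36me2 regions), grouped by role, with the KO library as circles and the WT library as squares. Most genes lie below 6% in both libraries, and Ring1 (46.7% in KO, 17.5% in WT) and Kdm6b (36.3% in KO, 19.03% in WT) show the widest gaps.

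Most of the cover lay in a few genes. The 10 most covered genes held 81.2% of the covered base pairs in KO with 27.5% of the total body length, and 82.1% in WT with 31.2% of the length. Of these, 8 were among the 10 in both libraries: Cbx7, Dot1l, Jarid2, Kdm2b, Kdm4b, Kdm6b, Nsd3 and Smyd2. Ranking genes by their cover builds in a high share for the first ones. The same share was not computed for other genes. At least 2000 bp in either library were covered in 12 of the 40, beside 19.1% of all coding genes and 26.3% of those of 30 to 100 kb. At least 10% of the body was covered in 10 of the 40, beside 15.8% of all coding genes.

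The targeted gene and most other H3K36 methyltransferase genes were almost bare. Nsd2 (chr5:33820676-33897966) held 1 region of 500 bp in KO, with 7.44 tags per 10000000 tags (the authors' normalised tag count), and none in WT. That region carries 11 tags before scaling (exact Poisson 95% interval 5.49 to 19.7). Its deposited score of 12 equals the caller's threshold in KO, and the region gives no check of the deletion. Setd2 likewise held 500 bp in KO and 0 bp in WT. Nsd1 held 1 region in each library, of 1105 bp and 24.7 normalised tags in KO and of 643 bp and 9.03 normalised tags in WT. The WT region of Nsd1 lay wholly within the KO one, and this difference kept its sign under each of 7 alternative settings. Of these settings, the common tag threshold and the division by the ratio of covered lengths can only move a difference towards KO. Ash1l had 1188 bp in 2 regions in KO and 2000 bp in 4 regions in WT, with no base in common, and the sign of its difference of -0.63 points turned under 3 alternatives.

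Nsd3 and Smyd2 were the marked members of this group, at like levels in both genotypes. Nsd3 (chr8:25601601-25719667) had 5711 bp in 8 regions in KO and 5625 bp in 9 regions in WT, which is 4.84% of its body in KO and 4.76% in WT. Of these base pairs 2638 lay in both lists. Smyd2, whose product methylates histone and non-histone lysines, was covered to 15.8% in KO and 14.8% in WT, by 8 regions in KO and 6 in WT. Only 1391 bp of Smyd2 were in both lists, 20.9% of its KO cover and 22.4% of its WT cover. Over all coding genes, 38.3% of KO cover and 28.6% of WT cover were shared, so most cover lay in 1 list there too. The sign of the Smyd2 difference turned under 3 alternatives, to -5.55 points without regions under 1 kb, and that of Nsd3 under 3. The group as a whole was covered to 2.79% in KO and 2.58% in WT.

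Among the Kmt2 and Setd1 genes, which encode the H3K4 methyltransferases and the related Kmt2e, Kmt2d stood apart. KMT2D is the main H3K4 monomethyltransferase of enhancers. Kmt2d (chr15:98831669-98874077) held 5584 bp in 8 regions in KO and 1500 bp in 3 regions in WT, a covered share of 13.2% in KO and 3.54% in WT. The KO regions were spread along the gene from 4780 bp to 39353 bp from the upper-coordinate end of its record. Of these regions, 2 overlapped a WT region. Each was small: they held between 7.78 and 17.2 normalised tags, the 3 WT ones between 7.58 and 10.2. The Kmt2d difference of 9.63 points kept its sign under all 7 alternatives and lay between 2.52 and 14.2 points.

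The other genes of this group had little cover. Setd1b was covered to 8.45% in KO and 8.33% in WT, with 802 bp in common, and its difference turned to -8.33 points without regions under 1 kb. Kmt2e had 1 region in each library across its lower-coordinate end, with 1252 bp inside the gene in KO and 464 bp in WT, and 951 bp of the KO region shared. Setd1a held 136 bp in KO, the edge of a region that also touches a neighbouring gene, and 760 bp in WT. Kmt2c, the longest body of the 40 at 227061 bp, had 0 bp in KO and 1000 bp in WT. Kmt2a was covered to 1.92% in KO and 1.78% in WT, and Kmt2b held 500 bp in each library at different places. Pooled, the group was covered to 2.30% in KO and 1.60% in WT.

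Dot1l, which encodes the H3K79 methyltransferase, had 17.9% of its body covered in KO and 18.1% in WT. In KO its 7220 bp fell into 9 regions, and in WT its 7289 bp into 7 regions. A WT region of 3636 bp ran from 1233 to 4869 bp past the start of the gene record. It overlapped 2 shorter KO regions that lie wholly inside it, 1970 bp in all. The sign of the Dot1l difference of -0.17 points turned under 5 alternatives. Of the H3K9 methyltransferase genes, Ehmt2, encoding G9a, held 2267 bp in 3 regions in KO and 1273 bp in 2 regions in WT. Nearly all of the WT cover of Ehmt2, 1233 bp, lay within KO regions, and no Ehmt2 region was left without those under 1 kb. Its partner gene Ehmt1 was covered to 0.51% in KO and 1.16% in WT, and Suv39h1 to 4.61% in KO and 3.68% in WT by 1 region each, 484 bp of it shared.

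The core PRC2 genes were close to unmarked, and Jarid2 alone carried many regions. Ezh2, the main catalytic subunit in dividing cells, and its homologue Ezh1 each had 500 bp in KO and 0 bp in WT. Suz12, a scaffold subunit, had none, and Eed, the reader of methylated lysine 27, had 0 bp in KO and 200 bp in WT. Jarid2 (chr13:44730774-44921643), an accessory subunit that helps recruit PRC2, held 6726 bp in 12 regions in KO and 10989 bp in 18 regions in WT. These are 3.52% of its 190870 bp in KO and 5.76% in WT. The regions in common amounted to 3353 bp, 49.9% of KO cover and 30.5% of WT cover, and 7 regions of each library overlapped the other. Jarid2 had the most negative difference in covered length among the 40, at -4263 bp. Its difference of -2.23 points became -0.92 points when WT regions of 500 bp were held to the KO threshold scaled to library size, and no region remained without those under 1 kb.

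Of the PRC1 genes, Ring1 had the widest gap of the 40. Ring1 (chr17:34020792-34024680) encodes a RING-finger E3 ligase for histone H2A and is the shortest of these genes, at 3889 bp. In KO it held a region of 500 bp with 8.45 normalised tags and one of 1568 bp with 24.0 normalised tags, 46.7% of its body in all. In WT it held 1 region of 682 bp with 10.2 normalised tags, or 17.5%. The longer KO region, 35.5 tags before scaling (24.4 to 48.7), has no WT counterpart, while the other shares 303 bp with the WT region. A gap of 29.2 points in so short a gene therefore rests on 1 region. The Ring1 difference kept its sign under all 7 alternatives, between 16.4 points in the 50% of regions with the most normalised tags and 54.7 points after merging neighbouring regions.

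That KO region of Ring1 extends over the annotated promoter, and the single WT region of Eed, of 626 bp and 9.03 normalised tags, does the same there. Among the 35 promoter windows listed for 28 of these genes, each of 300 bases (250 before and 50 after the start), these were the only ones lying wholly inside a region: Ring1 in KO and Eed in WT. That is 2.86% of the 35 windows in each library, against 6.28% of all coding-gene windows in KO and 6.31% in WT. They are shown because each is inside a region in 1 library and untouched in the other. Any overlap was found for 3 windows in KO and 3 in WT, or 8.57% in each library, against 11.6% of 18994 coding-gene windows in each. The RefSeq sequences (GRCm38.p6) are given 5′ to 3′ on the gene's strand with CG dinucleotides in capitals, for chr17:34024631-34024930 (minus strand) and chr7:89980927-89981226 (minus strand).
Ring1: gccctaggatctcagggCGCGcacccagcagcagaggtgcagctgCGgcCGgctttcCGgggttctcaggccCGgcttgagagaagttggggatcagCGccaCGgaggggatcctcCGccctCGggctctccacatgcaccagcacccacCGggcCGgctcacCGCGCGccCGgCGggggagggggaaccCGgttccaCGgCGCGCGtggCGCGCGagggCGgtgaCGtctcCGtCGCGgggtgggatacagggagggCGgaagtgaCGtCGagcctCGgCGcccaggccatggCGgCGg
Eed: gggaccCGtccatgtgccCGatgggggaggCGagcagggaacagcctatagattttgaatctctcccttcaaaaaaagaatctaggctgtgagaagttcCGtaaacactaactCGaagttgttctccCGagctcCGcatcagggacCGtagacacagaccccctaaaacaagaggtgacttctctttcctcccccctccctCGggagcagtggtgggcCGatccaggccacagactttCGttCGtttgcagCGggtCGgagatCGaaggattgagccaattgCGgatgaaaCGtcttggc
The Ring1 window has 37 CG dinucleotides and 74% G and C, and the Eed window 17 and 54.7%. At least as many CG as in the Ring1 window were found in 8.09% of all coding-gene windows and in 28.6% of the 35. For the Eed window these shares were 46.8% and 85.7%. The median over the 35 windows was 28 CG, against 15 over all windows. CG was searched as the letters CG, which read the same on both strands, and 97.3% of all windows hold it at least once.

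Cbx7 and Cbx8 also had a larger covered share in KO, Cbx7 under each alternative and Cbx8 at 0 in some. Both encode chromodomain proteins through which PRC1 reads methylated lysine 27. Cbx7 (chr15:79915804-79971143) held 7665 bp in 8 regions in KO and 3866 bp in 5 regions in WT, which is 13.9% of the body in KO and 6.99% in WT. In all, 1593 bp were common to both lists, and 1 region in each library also touches Apobec3, which overlaps the gene. The Cbx7 difference of 6.86 points stayed positive under all 7 alternatives, from 2.58 to 11.7 points. Cbx8 had 1 region of 500 bp in KO, at the threshold score of 12, and 0 bp in WT, so its 10.8 points went to 0 in 3 alternatives. Cbx2, which lies beside Cbx8 on chromosome 11, showed the opposite, with 0 bp in KO and 500 bp in WT. Rnf2, encoding the other H2A ligase, had 0 bp in KO and 500 bp in WT, and Bmi1, encoding a partner of that ligase, had none.

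**Figure D2:**
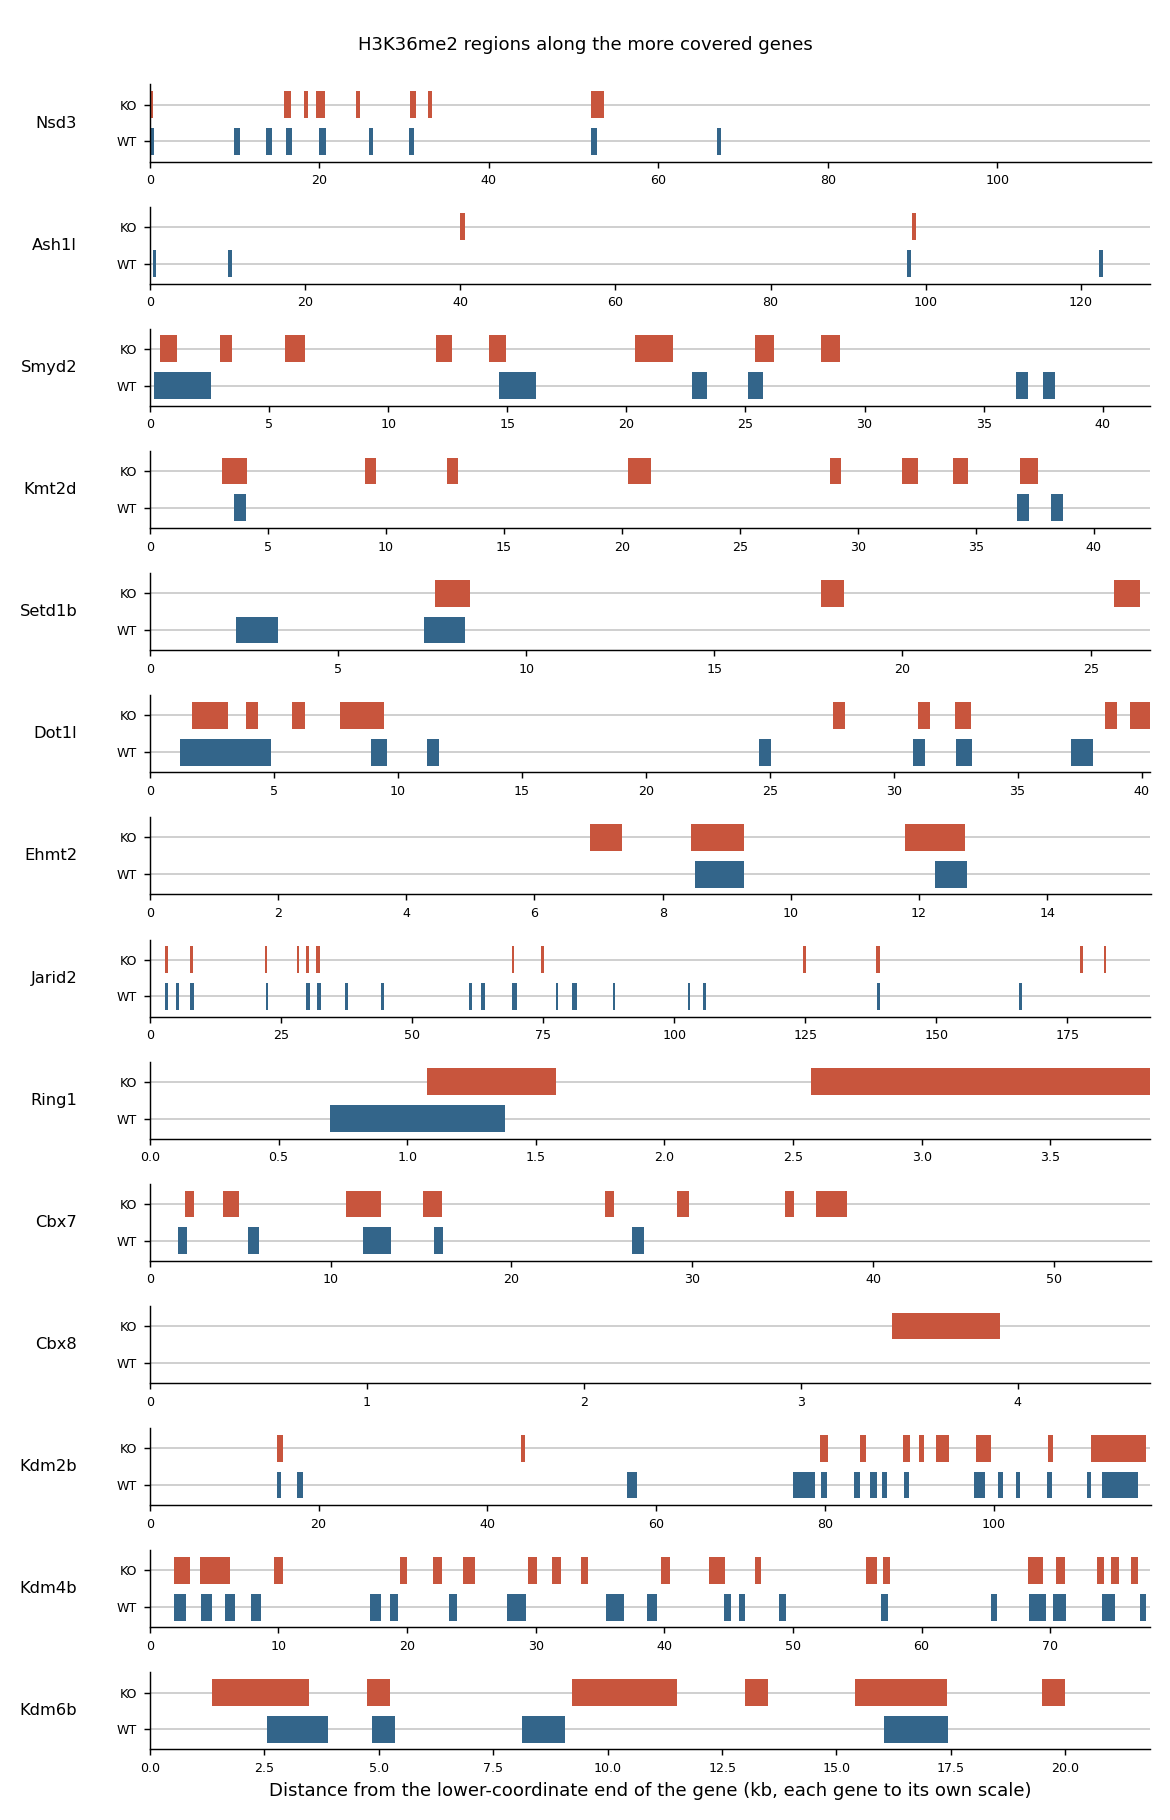
Regions of the KO library (upper row) and the WT library (lower row) along the 14 genes with at least 2000 bp covered in either library or a difference of at least 10 percentage points. The horizontal axis is the distance in kb from the lower-coordinate end of each gene, each to its own scale, and blocks at one position in both rows are shared cover, as at the upper end of Kdm2b.

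The demethylase genes held the most cover, 42832 bp in KO and 40306 bp in WT, and most of it lay in Kdm4b, Kdm2b and Kdm6b. Kdm4b (chr17:56325970-56403774) encodes a demethylase of trimethylated lysines 9 and 36 of histone H3. It was covered to 19.8% in each genotype, with 15421 bp in 19 regions in KO and 15432 bp in 20 regions in WT. Only 4592 bp of this were in both lists, 29.8% of either. Over all coding genes, 38.3% of KO cover and 28.6% of WT cover were in both lists. The shared part of Kdm4b cover was thus near the general level in WT and below it in KO.

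Kdm2b carried the longest domain of the family. Its product demethylates lysine 36 and binds unmethylated CpG through a CXXC zinc finger, bringing a PRC1 variant to CpG islands. At chr5:122982233-122988713 a KO region of 6480 bp held 114.6 normalised tags (169 tags before scaling, 144 to 196). A WT region of 4292 bp lay wholly inside it, with 87.1 normalised tags (149, 126 to 175). Counted from the upper-coordinate end of the gene record, the domain runs from 557 to 7037 bp in KO and from 1502 to 5794 bp in WT. An annotated promoter window of the gene, at chr5:122988458-122988757, had 256 bp inside the KO region and 0 bp in WT. Over the whole gene, Kdm2b had 14561 bp in 10 regions in KO and 16050 bp in 15 regions in WT, 12.3% of the body in KO and 13.5% in WT. The sign of this small difference turned under 2 alternatives, to 2.99 points after scaling by covered length. Kdm2a, the paralogue, had 500 bp in KO and 1000 bp in WT.

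Kdm6b (chr11:69398508-69420367), which encodes the H3K27 demethylase JMJD3, had the second widest gap. In KO it held 7933 bp in 6 regions with 135.9 normalised tags, and in WT 4161 bp in 4 regions with 63.0. This is 36.3% of the body in KO and 19.03% in WT. The KO list had 3 regions of over 2 kb, of 2124, 2283 and 2026 bp, while the longest WT region had 1384 bp. Of the WT cover 64.7% lay inside KO regions, and the KO region of 2283 bp had no base in WT. The Kdm6b difference of 17.3 points remained positive under all 7 alternatives, between 10.3 and 29.8 points. Its paralogue Kdm6a, on the X chromosome, had 0 bp in KO and 663 bp in WT.

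The remaining demethylase genes were covered to at most 3.30% in either library. Kdm1a, encoding LSD1, had 1726 bp in KO and 1000 bp in WT with no base in common. Kdm4a, a relative of Kdm4b, had 1032 bp in KO and 1000 bp in WT, and Kdm4c 500 bp in each at different places. Of the H3K4 demethylase genes, Kdm5b had 659 bp in KO and 500 bp in WT, Kdm5c 500 bp in KO and 0 bp in WT, and Kdm5a none.

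**Figure D3:**
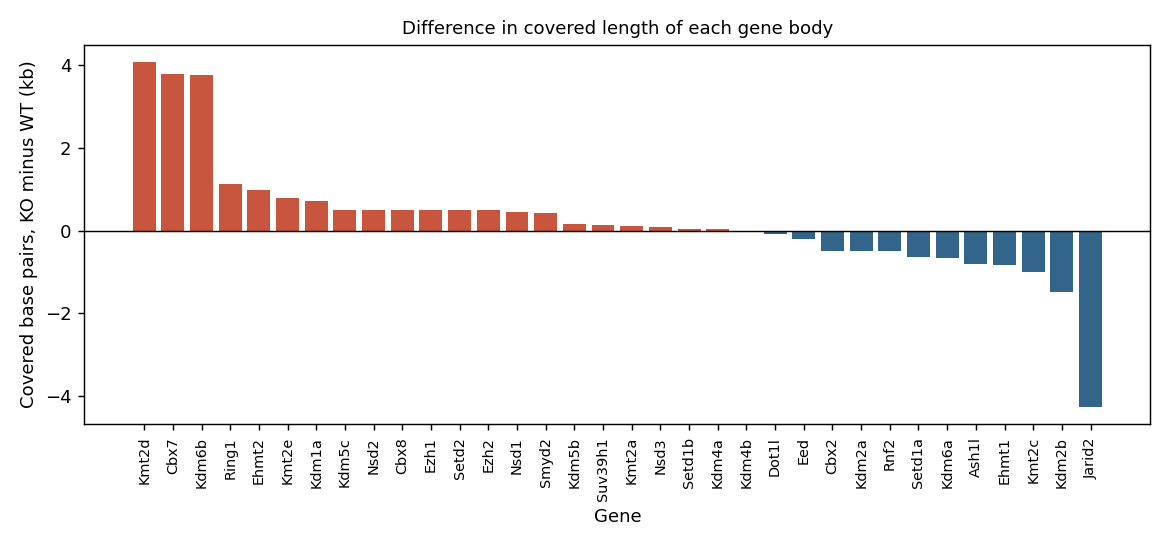
Covered base pairs in KO minus WT (vertical axis, kb) for the 34 genes with a difference, ordered from the most positive (red bars) to the most negative (blue bars). Kmt2d, Cbx7 and Kdm6b stand at 4084, 3799 and 3772 bp, and Jarid2 at -4263 bp.

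The net difference of 8264 bp was the sum of 19735 bp in 21 genes with more cover in KO and -11471 bp in 13 with less. Kmt2d, Cbx7 and Kdm6b, with 4084, 3799 and 3772 bp, made up most of the first amount. Together they exceed the net difference, so without them pooled KO cover would lie below WT cover. Jarid2, at -4263 bp, weighs the other way. Leaving out Ring1, a choice made after its values were seen, gave a KO covered length of 108% of that in WT over the other 39 genes. Ring1 adds only 1136 bp, so leaving it out could change little. By role, KO covered length was 180% of WT for PRC1 genes, 143% for Kmt2 and Setd1 genes and 108% for H3K36 methyltransferase genes. It was 106% for demethylase genes, 102% for the H3K9 and H3K79 group, and 69.1% for PRC2 genes, where Jarid2 sets the value. The intervals on the numbers of regions behind these percentages are wide, from 50.4 to 394% for PRC1 and from 34.2 to 155% for PRC2. Other role values also rested on single genes, picked out after their values were seen. Without Kmt2d, KO cover of the Kmt2 and Setd1 genes would lie below WT cover. The same holds for demethylase genes without Kdm6b and for the H3K9 and H3K79 group without Ehmt2. Most of the PRC1 gain lay in Cbx7.

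Regions in the 40 genes were near the calling threshold in both libraries. A score of at most 15 in KO and 16.25 in WT, a like margin above each tag threshold, was found in 108 of 120 KO regions (90%, exact 95% interval 83.2 to 94.7) and in 106 of 120 WT regions (88.3%, 81.2 to 93.5). Regions in all coding genes stood at 91.8% in KO and 90.2% in WT. A base in the other library's list was found for 42.5% of the KO regions (33.5 to 51.9), close to 41.4% over all coding genes. For WT regions it was also 42.5% (33.5 to 51.9), against 30.6% (30.1 to 31.1) over all coding genes. These intervals treat regions as independent.

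Cover along the gene was highest near the start when all strand-assigned genes were pooled, and in KO this rested largely on Kdm2b. In the 28 genes with a known strand, the 20% of the body nearest the start was covered to 5.51% in KO and 5.90% in WT. The middle 20% was covered to 1.54% in KO and 1.82% in WT, and the last 20% to 2.81% in KO and 2.77% in WT. Over 15242 coding genes the first 20% stood at 2.33% in KO and 2.85% in WT and the middle at 1.78% in KO and 2.42% in WT. Without Kdm2b, left out after its values were seen, the first 20% stood at 3.31% in KO and 3.996% in WT, and the next 20% at 3.21% in KO and 1.47% in WT.

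Other genes of histone methylation, a list of 64 further enzymes and subunits, did not show the same totals. They had 76147 bp in regions in KO and 119474 bp in WT, 1.83% of their bodies in KO and 2.87% in WT, so that KO covered length was 63.7% of WT. Smyd3, a lysine methyltransferase gene, carried much of this total, with 8410 bp in 16 regions in KO and 34920 bp in 50 regions in WT. Without Smyd3, left out after its values were seen, the other 63 genes had 67737 bp in KO and 84554 bp in WT, or 80.1% of WT. Of these genes 18 were larger in KO, 28 smaller, 17 had no region and 1 was equal, and 2 were higher by at least 20 points in KO and 0 lower. The 5 largest differences were in Cbx6, another PRC1 chromodomain gene, with 30.8% in KO and 4.79% in WT, and in Riox1 with 21.3% in KO and 0% in WT. Kdm8 had 2.63% in KO and 13.9% in WT, and Kmt5c, an H4K20 methyltransferase gene, 6.74% in KO and 18.01% in WT. Pcgf2, a PRC1 subunit gene, had 14.4% in KO and 3.67% in WT. Cbx6 (chr15:79823898-79834333) and Cbx7 lie close together on chromosome 15.

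**Figure D4:**
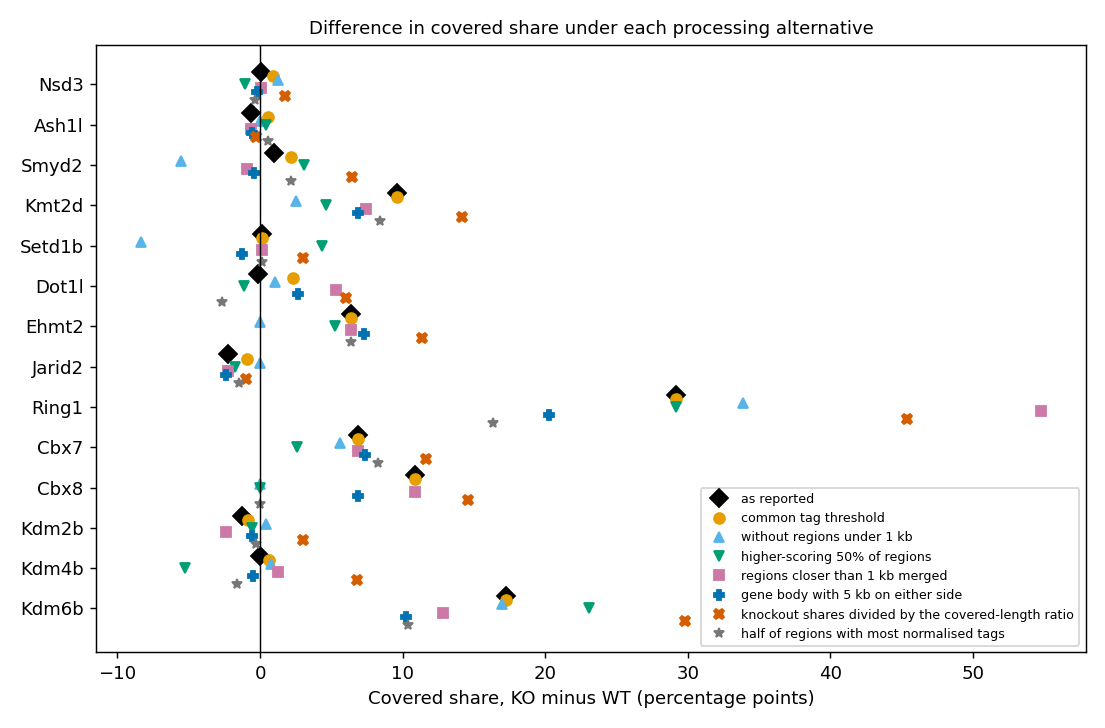
Difference in covered share, KO minus WT (horizontal axis, percentage points), for the same 14 genes under the reported setting (diamonds) and 7 alternatives (other symbols). Ring1, Kdm6b, Kmt2d and Cbx7 stay to the right of 0 in each, while Smyd2, Dot1l, Kdm2b, Kdm4b, Setd1b, Nsd3 and Ash1l cross it. The common threshold and the scaling can move a gene only to the right.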

How the data were processed

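H3K36me2 was profiled in 1 KO and 1 WT library of splenic Treg cells with an in situ ChIP library kit, per the labels' protocols. The antibody is not named, and the file headers record no input. Tools listed in the submitters' processing notes are Bowtie2, deepTools, HOMER, Picard and Trim Galore, with mm10 as the build. Per the file headers, regions were called by HOMER in histone style on each library alone, from peaks of 500 bp with a tag threshold of 12 in KO and 13 in WT, 8.11 and 7.58 per 10000000 tags. The normalised tag count deposited by the authors is a signal per region scaled to 10000000 tags, which removes any global change in the mark. Multiplied back, 100% of values under 10 were multiples of 0.5 tags within 0.05 of a step. The score deposited by the authors is on the scale of tags per peak, judged from its values, and their clonal fold ratio was not used. Tags are PCR reads without molecular identifiers, so intervals cover counting error only.

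Covered base pairs and regions (at least 1 bp) per gene body were computed with Python 3.11.15, numpy 2.4.6, pandas 2.3.3 and scipy 1.17.1. Gene positions came from RefSeq GRCm38.p6 without exons; 1 record was kept per symbol and overlapping genes share regions. All 40 members were found. Members and lists were chosen with earlier results of these data known. Full values were given for Nsd2, Nsd1, Nsd3, Ash1l and Setd2 and for members with at least 2000 bp covered or a difference of at least 10 points, and other members by their cover. On simulated data, all regions over 200 well-covered genes were removed from the WT list. Of these genes 200, and of 18962 untouched genes 0, were counted as lower by 20 points. Each of the 200 had been picked with a WT share above that limit, so both counts were fixed in advance. They check the computation alone, and calling noise was not simulated. For the B cell markers, 1 gene and the pooled value are not reported here.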

Additional observations from a re-analysis of the deposited data

How the results depend on the processing

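Settings tried were a common tag threshold, leaving out regions under 1 kb, the higher-scoring 50% of regions, merging regions closer than 1 kb, flanks of 5 kb, scaling by covered length and, added after the data were seen, the 50% of regions with the most normalised tags. Scaling divided KO shares by the genome-wide ratio of covered lengths, and the common threshold dropped WT regions of 500 bp under the KO threshold. The count of genes higher by 20 points in KO was 1 as reported, 2 in the higher-scoring regions (Kdm6b joining Ring1) and after scaling, 0 in the regions with the most normalised tags, and 3 at a limit of 10 points; the count lower was 0 in each. Pooled cover in KO went to 1.51%, 2.26%, 5.02% and 2.77% without regions under 1 kb, in the higher-scoring regions, after scaling and in those with the most normalised tags. In WT it went to 1.11%, 2.17% and 2.36% in the first, second and last of these. KO regions were 135% of WT regions without those under 1 kb (23 and 17 regions). The settings named for pooled cover remove or scale cover by construction. What moved the counts of genes and the ratio of regions was not tested. KO cover remained above WT cover over the pooled genes in each setting, from 104.5% to 146.9% of WT. The common threshold and the scaling could only raise this percentage. All settings reuse the same region lists, so this is no test of a difference. Of the 34 genes with a difference, 7 kept its sign under all alternatives (Kdm6b, Nsd1, Cbx7, Kmt2d, Ring1, Kdm1a and Kmt2e), 11 turned under at least 1, and 16 went to 0 in some. All 7 were larger in KO, and for such genes the common threshold and the scaling could not turn the sign. The same count over all coding genes was not made. Depth limits calls of regions near 12 tags. No paired analysis was possible because each genotype had 1 library.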

Other observations

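The surroundings of the 40 genes were better covered than the genes themselves, in a window of 50 kb on either side chosen after the values were seen. Pooled flanks were covered to 4.90% in KO and 4.89% in WT, and the flanks of all coding genes to 2.83% in KO and 3.24% in WT. The bodies of all coding genes stood at 1.89% in KO and 2.53% in WT, so better covered flanks were not particular to the 40. KO covered length was 100.1% of WT in these pooled flanks and 87.5% in those of all coding genes. Flanks of single genes differed in both directions. Those of Dot1l were covered to 14.0% in KO and 7.95% in WT, and those of Jarid2 to 0.5% in KO and 6.11% in WT. Flanks were summed gene by gene, so stretches shared by neighbouring genes count more than once. The body had a lower share than its flanks in both libraries in 16 of the 40, beside 30.9% of all coding genes, and a higher share in 10, beside 20.2%.

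Setd2, whose product trimethylates H3K36, was an example of the first kind, with 0.58% of the body covered in KO and 0% in WT, and flanks at 9.10% in KO and 10.7% in WT. Kdm5a, an H3K4 demethylase gene, had an uncovered body and flanks at 10.9% in KO and 7.46% in WT. Kdm2a had flanks at 11.7% in KO and 12.8% in WT. Smyd2 was of the second kind, with its flanks at 2.70% in KO and 3.39% in WT. The flanks of Ring1 were the most covered of the 40, at 21.7% in KO and 15.7% in WT.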
